A study of Mus musculus with 24 samples.

Results

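Glycolytic enzyme genes were followed in microglia-rich cells of adult mouse brain. The 10 genes were chosen by name as enzymes that carry glucose to lactate: the hexokinases Hk1, Hk2 and Hk3, the phosphofructokinases Pfkl and Pfkp, the aldolase Aldoa, and Pgk1, Eno1, Pkm and Ldha. All 10 were in the table of 55487 genes, and all 10 passed the filter on low counts with 17139 genes in all, so each member was tested in every comparison.

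The study asked how immune activation before birth changes the later response of microglia to an inflammatory challenge. The mice were males of 8 to 10 weeks whose dams had undergone maternal immune activation (MIA) or belonged to the control group, and the agent given to the dams, the mouse strain and the litters are not given in the sources used here. Each mouse received lipopolysaccharide (LPS, a bacterial cell wall component) at 4500 EU per g body weight into the peritoneum, or saline, and cells were collected 18 h later. The 8 groups were MIA striatum LPS, MIA striatum saline, MIA cortex LPS, MIA cortex saline, control striatum LPS, control striatum saline, control cortex LPS and control cortex saline, where cortex is the frontal cortex. The tissue had been perfused, freed of meninges and dissociated with papain, and the sorted cells were those bound by magnetic beads against CD11b, a surface protein of microglia that monocytes, neutrophils and border macrophages also carry. Each group had 3 libraries except MIA striatum LPS, which had 2, because the submitters had set another aside. The labels do not say whether libraries of a group came from separate animals, and if they did not, the p-values below cover technical spread alone. They also do not say whether cortex and striatum libraries of the same number came from the same animal, and the fits took all libraries as independent, so the p-values of values averaged over regions or settings depend on that. Since litters are not given, a difference between MIA and control cannot be told apart from a difference between litters.

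The 23 libraries held 19453295 to 29480499 counts each, and the 10 enzymes together took 0.241% to 0.418% of them. The labelled cell type was borne out by its markers: the 10 microglia genes, among them P2ry12, Tmem119, Cx3cr1, Sall1, Csf1r, Fcrls, Olfml3, Siglech and Gpr34, were present in all 23 libraries and summed to 29424 to 40920.1 CPM after LPS, against 46562 to 63932 CPM after saline. CPM, the library-scaled count, divides a gene's count by the TMM-scaled total of its library. All 10 microglia markers fell with LPS on average over the 4 settings. The 10 neutrophil markers summed to 203 to 717 CPM after LPS and 11.2 to 676 CPM after saline (6 rose and 1 fell), and the 8 monocyte markers to 147 to 369.6 and 38.6 to 179 CPM (5 rose). Of these, Elane was at 0 in 8 libraries, Ly6g in 6, Mpo in 5 and Vcan in 1. The 5 red blood cell markers all fell on average, but by setting 4 fell in MIA striatum, 4 in MIA cortex and 0 in either control setting. They summed to 20.8 to 55.6 CPM in MIA striatum LPS and 51.6 to 421 CPM in MIA striatum saline, and to 31.5 to 50.1 CPM in MIA cortex LPS and 76.3 to 992 CPM in MIA cortex saline. In control striatum the sums were 139 to 204 CPM after LPS and 112 to 241 CPM after saline, and in control cortex 201 to 352 CPM after LPS and 154 to 276 CPM after saline. Of the 6 border macrophage markers 3 rose and 2 fell, and of the 7 astrocyte markers 1 rose and 1 fell. The part of these cells in the LPS results was not tested. In bulk samples, fewer cells of a type and less RNA per cell cannot be told apart.

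Glycolysis splits glucose into pyruvate in the cytosol. Hexokinases trap glucose by phosphorylating it, phosphofructokinase makes the committed step, aldolase splits the sugar, and the later enzymes PGK, enolase and pyruvate kinase recover the energy as ATP and pyruvate. Lactate dehydrogenase then turns pyruvate into lactate and regenerates the NAD+ that the pathway needs. Macrophages and microglia exposed to LPS are known for a shift toward glycolysis and lactate output, with many of these genes under the transcription factor HIF-1.

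After LPS, the enzymes of the lower part of the pathway were higher and 2 of the 3 hexokinases were lower. Averaged over the 4 settings (MIA striatum, MIA cortex, control striatum, control cortex), Ldha was 2.15-fold higher, Pkm 1.68-fold, Pgk1 1.5-fold, Eno1 1.31-fold and Hk2 1.19-fold, while Hk3 stood at 0.672 and Hk1 at 0.751 times the saline level. These 7 passed the test (5 rose, 2 fell), and Pfkl, Pfkp and Aldoa did not. Of all genes tested, 37.6% were called in this comparison, 20.7% higher and 16.9% lower. The median log2 fold change was 0.22 over the 10 enzymes and -0.04 over all genes. A gene was called where the p of edgeR's quasi-likelihood test, adjusted over all genes by the method of Benjamini and Hochberg, was under 0.05.

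**Figure D1:**
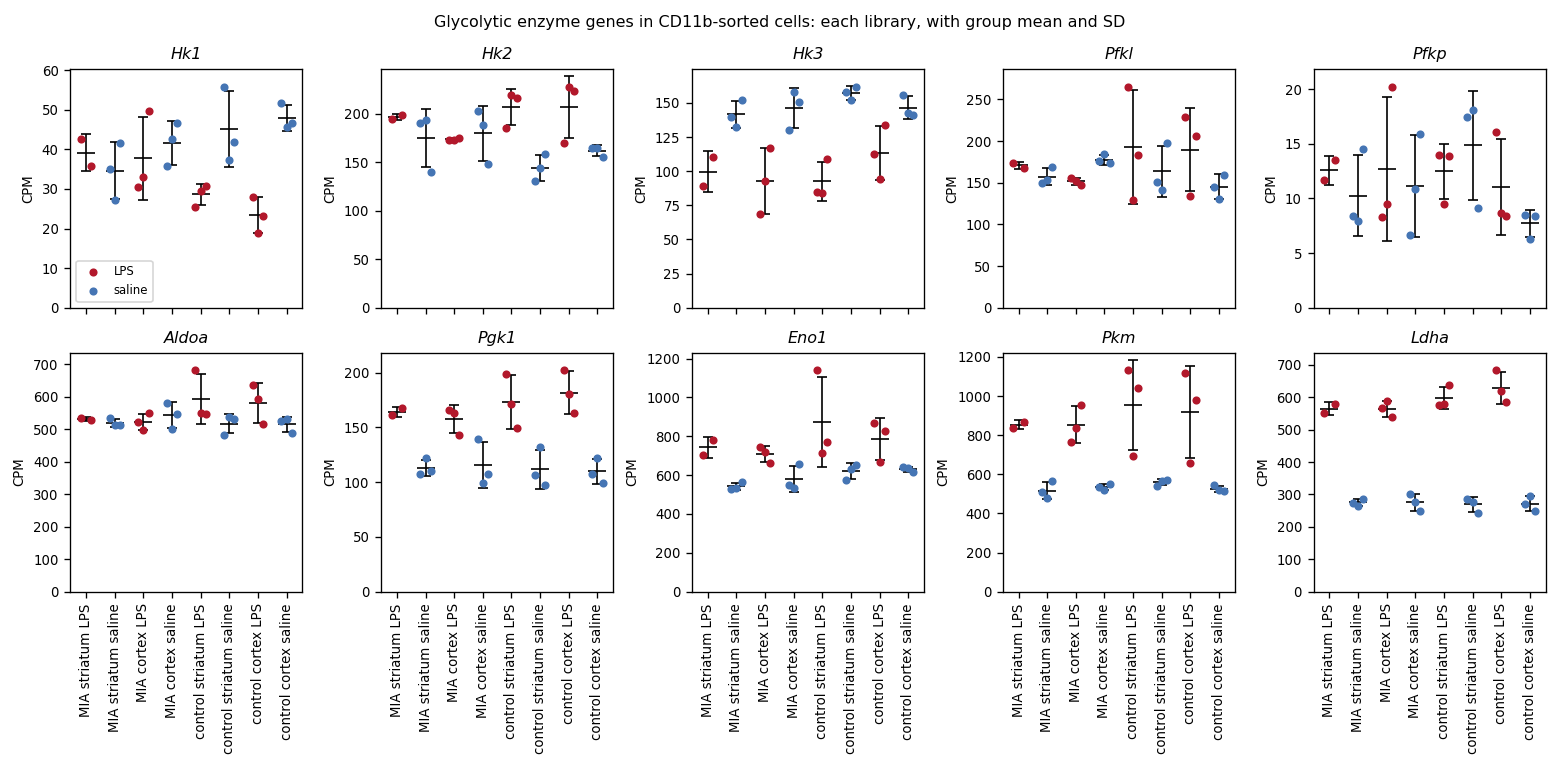
CPM (linear axis from 0) of each enzyme gene in every library, LPS in red and saline in blue, with the group mean as a horizontal mark and the SD as a bar. For Ldha all LPS libraries lie at 538 CPM or above and all saline libraries at 302 CPM or below.

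Setting by setting, LPS changed 3 members in MIA striatum (3 higher; 10.2% of all genes called, 6.93% higher and 3.31% lower), 3 in MIA cortex (2 higher, 1 lower; 11.9% of all genes called, 7.05% higher and 4.85% lower), 7 in control striatum (5 higher, 2 lower; 20.9% of all genes called, 12.7% higher and 8.15% lower) and 4 in control cortex (3 higher, 1 lower; 18.2% of all genes called, 10.9% higher and 7.25% lower). Ldha and Pkm were called in all 4 settings and Pgk1 in 3. Whether the response differed between MIA and control is tested with the MIA comparisons. The 11 LPS and 12 saline libraries did not overlap for 4 members (Ldha, Pkm, Eno1 and Pgk1, all higher), against 5.78% of all genes that were separated in this direction. Within a single setting, with 3 or fewer libraries a group, LPS and saline libraries did not overlap for 44.4% of all genes in MIA striatum, 26.8% in MIA cortex, 34.9% in control striatum and 33.5% in control cortex.

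**Figure D2:**
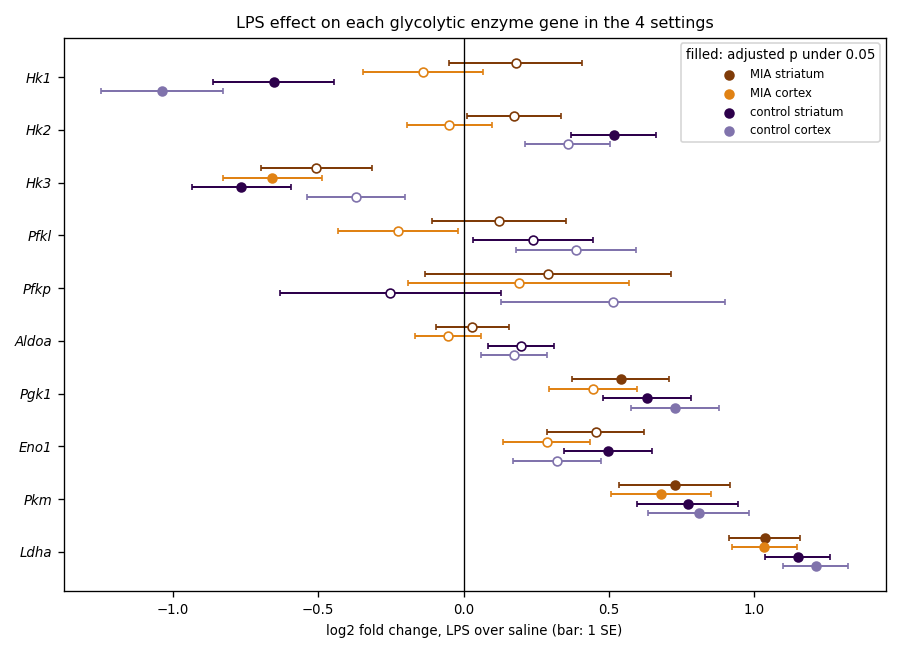
Log2 fold change of LPS over saline for each enzyme gene in the 4 settings, with a bar of 1 SE; filled points passed the adjusted p of 0.05. Ldha lies between 1.03 and 1.21 in all 4 settings, whereas Hk1 lies at 0.18 and -0.14 in the MIA settings and at -0.65 and -1.04 in the control settings.

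The start regions of 4 of these genes are shown, Ldha and Pgk1 because they rose and are known targets of HIF-1, and Hk2 and Hk3 because they moved in opposite directions within a family. Each window holds 250 bases before and 50 bases after a transcription start site of RefSeq on GRCm38.p6, written 5′ to 3′ on the gene's strand. Capitals mark ACGTG on either strand, a common core of the HIF-1 response element, which is also part of CACGTG, and overlapping matches count as 1 place. The windows are chr7:46845554-46845853, plus strand for Ldha (the first of its 2 RefSeq windows), chrX:106186850-106187149, plus strand for Pgk1, chr6:82774405-82774704, minus strand for Hk2 and chr13:55021336-55021635, minus strand for Hk3.
Ldha: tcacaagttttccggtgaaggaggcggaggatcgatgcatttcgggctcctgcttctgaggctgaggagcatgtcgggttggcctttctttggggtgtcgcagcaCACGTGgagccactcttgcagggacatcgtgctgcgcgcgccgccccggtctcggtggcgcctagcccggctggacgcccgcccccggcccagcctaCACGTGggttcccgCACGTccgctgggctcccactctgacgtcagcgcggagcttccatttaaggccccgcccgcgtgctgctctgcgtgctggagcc
Pgk1: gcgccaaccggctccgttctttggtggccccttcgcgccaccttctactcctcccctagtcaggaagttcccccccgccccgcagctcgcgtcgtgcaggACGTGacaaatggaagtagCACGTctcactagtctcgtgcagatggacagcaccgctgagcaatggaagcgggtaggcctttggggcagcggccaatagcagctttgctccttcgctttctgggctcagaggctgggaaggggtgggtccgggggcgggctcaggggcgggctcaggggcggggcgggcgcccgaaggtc
Hk2: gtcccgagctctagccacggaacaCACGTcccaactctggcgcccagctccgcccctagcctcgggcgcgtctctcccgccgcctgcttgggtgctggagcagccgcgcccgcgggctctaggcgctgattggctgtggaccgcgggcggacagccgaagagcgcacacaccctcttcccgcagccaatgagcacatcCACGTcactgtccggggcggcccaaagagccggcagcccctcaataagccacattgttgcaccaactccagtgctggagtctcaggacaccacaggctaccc
Hk3: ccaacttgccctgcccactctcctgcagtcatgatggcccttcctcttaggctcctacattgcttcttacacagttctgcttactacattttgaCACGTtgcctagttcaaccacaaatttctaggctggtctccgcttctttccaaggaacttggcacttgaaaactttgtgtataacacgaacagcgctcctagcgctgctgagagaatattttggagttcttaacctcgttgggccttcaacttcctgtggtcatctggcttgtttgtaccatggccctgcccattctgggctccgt
The Ldha window holds 3 such places, 2 of them as CACGTG, which is also the E-box bound by MYC and its partners. Of 32851 RefSeq windows of the same length, 19.6% hold at least 1 ACGTG, 2.69% at least 2 and 0.414% at least 3. At least 1 CACGTG is in 7.15%. These shares are per single window and do not allow for taking the best of several windows of a gene. Pgk1 and Hk2, which rose, have 2 places each, and Hk3, which fell, has 1. RefSeq gave 17 windows for the 10 members, and with the window of most matches taken for each, Pkm and Hk1 have 2 places, Aldoa has 1, and Pfkl, Pfkp and Eno1 have 0. Genes with 2 places include members that rose (Pkm, Pgk1, Hk2) and 1 that fell (Hk1). GGGCGG, the box bound by SP1, is on either strand in the windows of Ldha (3 places), Pgk1 (4) and Hk2 (3) but not of Hk3. Of all windows, 35.7% hold at least 1 GGGCGG, 18.9% at least 2 and 9.69% at least 3. A match says nothing of whether a factor binds there.

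Levels of different genes were compared per length, as CPM per kb of the bases covered by a gene's exons. In control cortex saline Aldoa was highest at 177 ± 7.73 CPM per kb (SD, n = 3), followed by Eno1 at 117 ± 2.51, Pkm at 105 ± 3.30, Ldha at 82.1 ± 6.73 and Pgk1 at 49.0 ± 5.11. Hexokinases and phosphofructokinases were lower, with Hk3 at 39.8 ± 2.24, Hk2 at 27.1 ± 0.955, Pfkl at 21.8 ± 2.21, Hk1 at 5.63 ± 0.381 and Pfkp at 0.577 ± 0.0933 CPM per kb. Ldha ranked 4 of 10 in each of the 4 saline groups. After LPS it stood at 189.9 ± 15.2 CPM per kb in control cortex, rank 2 behind Aldoa at 199.8 ± 21.1, and it ranked 3 in the other LPS groups. Exon bases of all annotated transcripts were counted, 13401 for Pfkp, so a gene read mostly from a short transcript is placed too low.

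Ldha encodes the lactate dehydrogenase subunit that favours lactate formation. The gene (ENSMUSG00000063229.15, chr7:46841475-46855627, plus strand, GRCm38) stood in MIA striatum at 550.0 and 579 CPM after LPS, against 275, 264 and 287 CPM after saline. In MIA cortex it stood at 566, 587 and 538 CPM after LPS, against 302, 277 and 248 CPM after saline. Control striatum gave 576, 580.0 and 638 CPM after LPS, against 287, 278 and 244 CPM after saline, and control cortex gave 683, 619 and 584 CPM after LPS, against 270.3, 295 and 250.2 CPM after saline. Every LPS library lay above every saline library, and no other member had so wide a gap. The log2 fold changes were 1.04 ± 0.12 (SE, adjusted p = 1.01e-05) in MIA striatum, 1.03 ± 0.11 (adjusted p = 2.96e-06) in MIA cortex, 1.15 ± 0.11 (adjusted p = 4.63e-07) in control striatum and 1.21 ± 0.11 (adjusted p = 2.43e-07) in control cortex. Ranked by mean, the 4 LPS groups ran from 564 ± 24.6 CPM (MIA cortex) to 629 ± 50.2 CPM (control cortex), and the 4 saline groups from 269.7 ± 23.04 to 275 ± 11.5 CPM. Within each of these 2 sets the neighbours overlapped.

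Pkm encodes pyruvate kinase, which makes pyruvate and ATP. The gene (ENSMUSG00000032294.17, chr9:59656368-59679375, plus strand, GRCm38) stood in MIA striatum at 839 and 869.6 CPM after LPS, against 508, 479.8 and 563 CPM after saline. MIA cortex gave 766, 838 and 955 CPM after LPS, against 533, 518 and 548 CPM after saline. These 2 settings were separated without overlap, as were the control settings. Control striatum gave 1131, 691 and 1040.2 CPM after LPS, against 543, 567 and 569 CPM after saline, and control cortex gave 1117, 657 and 981 CPM after LPS, against 543, 518 and 513 CPM after saline. Control libraries after LPS were far more spread than control saline libraries, with replicate 1 highest and replicate 2 lowest in both regions. Log2 fold changes were 0.73 ± 0.19 (adjusted p = 0.0164) in MIA striatum, 0.68 ± 0.17 (adjusted p = 0.0125) in MIA cortex, 0.77 ± 0.17 (adjusted p = 0.00295) in control striatum and 0.81 ± 0.17 (adjusted p = 0.00217) in control cortex. The table sums the muscle-type and the constitutive splice form of Pkm, so their balance cannot be read from it. The call in MIA striatum was lost without any of MIA striatum LPS 1, LPS 2, saline 1 or saline 2 (adjusted p = 0.0935, 0.195, 0.0562 and 0.0798), and that in MIA cortex without MIA cortex saline 1 (adjusted p = 0.0551).

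Pgk1 encodes phosphoglycerate kinase, the first ATP-yielding enzyme of the pathway. The gene (ENSMUSG00000062070.12, chrX:106187100-106203699, plus strand, GRCm38) stood in MIA striatum at 161 and 167 CPM after LPS, against 108, 122 and 109.8 CPM after saline. MIA cortex gave 166, 163 and 143 CPM after LPS, against 139.6, 99.4 and 108 CPM after saline. All of these LPS libraries lay above the saline libraries of their setting, the closest pair being MIA cortex LPS 3 and MIA cortex saline 1. Control striatum gave 199, 171 and 149 CPM after LPS, against 106, 132 and 97.4 CPM after saline, and control cortex gave 202, 180.1 and 163 CPM after LPS, against 108, 122 and 99.6 CPM after saline. The rise was 0.54 ± 0.17 on the log2 scale in MIA striatum (adjusted p = 0.042), 0.63 ± 0.15 in control striatum (adjusted p = 0.00472) and 0.73 ± 0.15 in control cortex (adjusted p = 0.00162). In MIA cortex the difference was 0.44 ± 0.15 and missed the threshold (adjusted p = 0.0601), although DESeq2 called it (adjusted p = 0.0235). The call in MIA striatum was the narrowest: it was lost with another scaling of the libraries (adjusted p = 0.0514), without the filter on low counts (adjusted p = 0.0934), without any library of that setting (adjusted p = 0.0518 to 0.302) and without MIA cortex LPS 2, control striatum saline 1 or control cortex saline 1 (adjusted p = 0.0516, 0.0506 and 0.0534). In MIA cortex the difference did pass without MIA cortex saline 1, MIA striatum saline 2, control striatum LPS 1 or control striatum saline 3 (adjusted p = 0.0189, 0.0355, 0.0458 and 0.0281).

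Eno1 encodes enolase 1, which forms phosphoenolpyruvate. The gene (ENSMUSG00000063524.13, chr4:150236721-150248879, plus strand, GRCm38) stood in MIA striatum at 705 and 781 CPM after LPS, against 531, 532 and 564 CPM after saline. MIA cortex gave 743, 717 and 661 CPM after LPS, against 549, 534 and 658 CPM after saline. Control striatum gave 1139.5, 713 and 769.6 CPM after LPS, against 574, 634 and 652 CPM after saline, and control cortex gave 869, 665 and 825 CPM after LPS, against 641, 634 and 615 CPM after saline. The LPS libraries lay above the saline libraries in each setting, but in MIA cortex LPS 3 and saline 3 differed by less than the spread within either group. Only control striatum was called, at 0.50 ± 0.15 (adjusted p = 0.0229), where LPS 1 stood alone at 1139.5 CPM and without which the value was 0.26 (adjusted p = 0.179). Without that library, which shares the estimate of the spread, the difference in MIA striatum passed (adjusted p = 0.0243). The call in control striatum was also lost without control striatum saline 1 or 2 or MIA striatum LPS 2 (adjusted p = 0.0943, 0.0563 and 0.0513). Differences in the other settings were 0.45 ± 0.17 in MIA striatum (adjusted p = 0.0964), 0.29 ± 0.15 in MIA cortex (adjusted p = 0.271) and 0.32 ± 0.15 in control cortex (adjusted p = 0.163). Averaged over the 4 settings the rise was 0.39 ± 0.08 (adjusted p = 0.000394).

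Aldoa, Pfkl and Pfkp, which encode the main aldolase and the liver and platelet forms of phosphofructokinase, did not pass in any setting. Aldoa (ENSMUSG00000030695.16, chr7:126795234-126800751, minus strand, GRCm38) had a lowest, median and highest value of 498, 546 and 682 CPM in the 11 LPS libraries and 483, 529 and 581 CPM in the 12 saline libraries. Its averaged difference was 0.09 ± 0.06 with a 95% interval of -0.04 to 0.21, so a change of the size seen for Ldha or Pkm lay outside the interval. Pfkl (ENSMUSG00000020277.10, chr10:77986947-78010083, minus strand) ran at 129.8, 168 and 266 CPM after LPS and 130.3, 156 and 198 CPM after saline. Both sets overlapped, with an averaged difference of 0.13 ± 0.11 (95% interval -0.09 to 0.35). By setting Pfkl was at 0.12 in MIA striatum, -0.23 in MIA cortex, 0.24 in control striatum and 0.39 in control cortex. In MIA cortex its LPS libraries (148 to 155 CPM) all lay under its saline libraries (173 to 184 CPM), where 26.8% of all genes were separated in either direction. In control striatum LPS its 3 libraries stood at 266, 129.8 and 183 CPM, the widest spread of the gene. Pfkp (ENSMUSG00000021196.14, chr13:6579768-6648777, minus strand) was the scarcest member, at 8.27, 11.7 and 20.2 CPM after LPS and 6.29, 8.80 and 18.1 CPM after saline, with an averaged difference of 0.19 ± 0.20 and a 95% interval of -0.22 to 0.59. Pitrm1 overlaps Pfkp and held 19705 counts in the 23 libraries, against 6522 for Pfkp, and none of the values of Pfkp was whole. Reads in the overlap cannot be told apart here.

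The hexokinases moved apart. Hk2, the form that LPS-treated macrophages are known to induce, rose on average. The gene (ENSMUSG00000000628.10, chr6:82725025-82774454, minus strand, GRCm38) stood in MIA striatum at 194 and 199 CPM after LPS, against 189.8, 194 and 139.9 CPM after saline. MIA cortex gave 173, 173 and 175 CPM after LPS, against 202, 188 and 148 CPM after saline. In MIA cortex the groups overlapped, since the LPS libraries lay within the saline range. Control striatum gave 185, 219 and 216 CPM after LPS, against 131, 144 and 158 CPM after saline, and control cortex gave 169.8, 228 and 223 CPM after LPS, against 165, 165 and 155 CPM after saline. Both control settings were separated without overlap. So was MIA striatum, but there LPS 1 (194.3 CPM) and saline 2 (193.8 CPM) lay close together. The change was 0.52 ± 0.15 in control striatum (adjusted p = 0.015), while control cortex was at 0.36 ± 0.15 (adjusted p = 0.102), MIA striatum at 0.17 ± 0.16 (adjusted p = 0.608) and MIA cortex at -0.05 ± 0.15 (adjusted p = 0.907). The averaged rise of 0.25 ± 0.08 (adjusted p = 0.0118) was lost without MIA striatum LPS 2 (adjusted p = 0.0564) and with the library that the submitters had set aside (0.17, adjusted p = 0.258). In control cortex the difference passed without control cortex LPS 1, the lowest of its LPS libraries, or MIA cortex saline 1 (adjusted p = 0.0412 and 0.0449). The call in control striatum was lost without control striatum saline 1 (adjusted p = 0.0756).

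Hk3, a hexokinase found mainly in myeloid cells, fell. The gene (ENSMUSG00000025877.14, chr13:55005985-55021385, minus strand, GRCm38) stood in MIA striatum at 89.1 and 110.1 CPM after LPS, against 139.8, 133 and 152 CPM after saline. MIA cortex gave 68.6, 92.5 and 117 CPM after LPS, against 130.0, 158 and 150.4 CPM after saline. Each LPS library of these settings lay under all saline libraries of its setting. Control striatum gave 84.7, 83.7 and 109 CPM after LPS, against 158, 152 and 162 CPM after saline, and control cortex gave 112, 94.1 and 134 CPM after LPS, against 156, 142 and 141 CPM after saline. The separation was widest in control striatum and narrowest in control cortex, where LPS 3 came close to saline 3. Hk3 fell by 0.66 ± 0.17 on the log2 scale in MIA cortex (adjusted p = 0.0132) and by 0.76 ± 0.17 in control striatum (adjusted p = 0.00264). The values in MIA striatum (-0.51 ± 0.19, adjusted p = 0.108) and control cortex (-0.37 ± 0.17, adjusted p = 0.15) did not pass. Averaged over the settings the fall was -0.57 ± 0.09 (adjusted p = 2.1e-05). The call in MIA cortex was lost without MIA cortex LPS 1, saline 2 or saline 3 (adjusted p = 0.0858, 0.0943 and 0.0789). Microglia markers fell in the same libraries, as given above, with a median change of -0.74 on the log2 scale over the 10 genes, and their part in the fall of Hk3 was not tested.

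Hk1, the hexokinase of most brain cells, which binds to mitochondria, fell in the control settings. The gene (ENSMUSG00000037012.18, chr10:62268855-62379908, minus strand, GRCm38) stood in MIA striatum at 42.5 and 35.9 CPM after LPS, against 35.0, 27.2 and 41.7 CPM after saline. MIA cortex gave 30.5, 33.1 and 49.7 CPM after LPS, against 35.8, 42.5 and 46.7 CPM after saline. In both MIA settings the LPS and saline libraries overlapped. Control striatum gave 25.6, 29.6 and 30.8 CPM after LPS, against 55.9, 37.4 and 41.9 CPM after saline, and control cortex gave 28.1, 18.9 and 23.2 CPM after LPS, against 51.7, 45.6 and 46.7 CPM after saline. Neither control setting had any overlap, and control cortex LPS held the 2 lowest libraries of the 23. The difference was 0.18 ± 0.23 in MIA striatum (adjusted p = 0.726) and -0.14 ± 0.21 in MIA cortex (adjusted p = 0.772), whereas Hk1 fell by 0.65 ± 0.21 in control striatum (adjusted p = 0.0294) and by 1.04 ± 0.21 in control cortex (adjusted p = 0.00124). Without control striatum saline 1, which had the most Hk1, the value in control striatum was -0.47 (adjusted p = 0.172). The same call was lost without control striatum LPS 1 or 2 or saline 3 (adjusted p = 0.0984, 0.0564 and 0.0549).

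In control striatum 2 of 7 oligodendrocyte and 4 of 8 endothelial markers also fell with LPS. The 7 oligodendrocyte markers summed to 1079.9, 479 and 819.8 CPM in its LPS libraries, against 5509.9, 4149 and 1307 CPM in its saline libraries, and the 8 endothelial markers to 598, 833 and 525 against 1832, 1516 and 772 CPM. None of these 15 markers was at 0 in any library. In control cortex the oligodendrocyte sums were 319 to 649 CPM after LPS and 274 to 468 CPM after saline, which overlapped. The endothelial sums in control cortex were 432 to 876 CPM after LPS and 386 to 585 CPM after saline. The part of these cells in the values of Hk1 was not tested.

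As a share of the 3 hexokinases per length, Hk2 took 43.9%, 52.1% and 58.3% (lowest, median and highest of 11 LPS libraries), against 30.8%, 36.8% and 46.2% in 12 saline libraries. Hk3 took 36.2%, 42.7% and 49.0% after LPS, against 48.1%, 55.3% and 60.1% after saline. Per length, Hk3 was thus the more abundant form in the median saline library and Hk2 in the median LPS library. The order after saline rests on the scaling by length, whereas after LPS Hk2 was the higher in CPM too. In CPM the medians after saline were 161 for Hk2 and 151 for Hk3, and after LPS 194 and 94.1. The share of Hk1 was 6.23% to 8.71% in MIA LPS and 4.44% to 7.69% in MIA saline libraries, and 3.36% to 5.52% in control LPS and 6.29% to 9.19% in control saline libraries. Control libraries were separated by treatment for Hk1, and MIA libraries overlapped. The 3 genes summed to a median of 62.8 CPM per kb after LPS and 71.6 CPM per kb after saline. These shares are a description of the libraries, with no test.

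**Figure D3:**
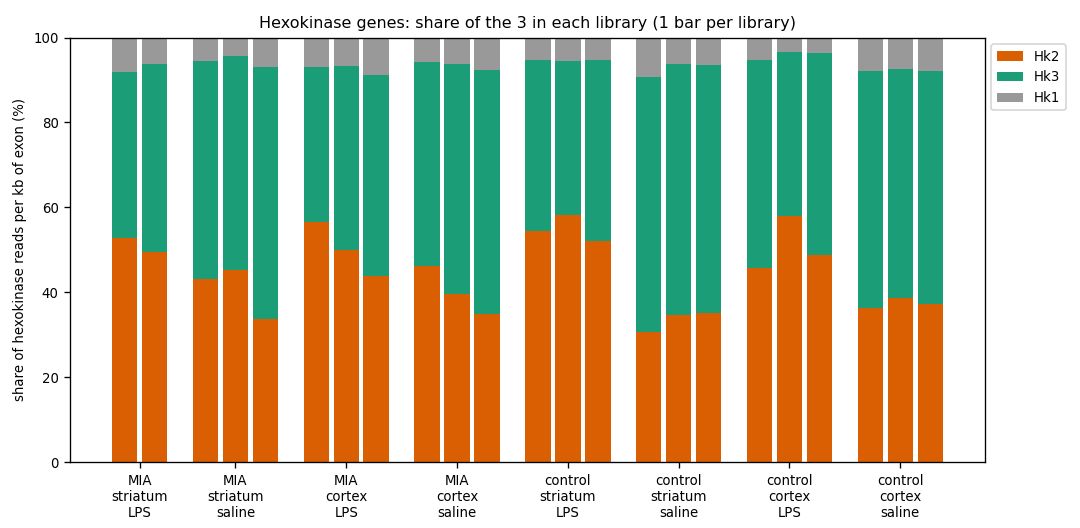
Share (%) of Hk2, Hk3 and Hk1 in the summed reads per kb of the 3 hexokinases, with 1 bar per library and the libraries grouped. The Hk2 part is 43.9% to 58.3% in LPS bars and 30.8% to 46.2% in saline bars.

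Other genes of sugar metabolism were read from 6 further lists, whose averaged counts stand against the 37.6% of all genes called (20.7% higher, 16.9% lower). Of 13 tested glycolytic enzymes outside the 10, 4 rose and 7 fell with LPS on average over the 4 settings. Gapdh, the enzyme between aldolase and PGK, stood at 1064 ± 180.2 CPM in control cortex LPS and 514 ± 52.4 CPM in control cortex saline (SD, n = 3 each), and rose by 0.95 ± 0.09 on average (adjusted p = 4.5e-08). Gpi1, the isomerase that follows hexokinase, rose by 0.67 ± 0.07 (adjusted p = 8.66e-08). Ldhb, the lactate dehydrogenase subunit that favours pyruvate, fell to 484 ± 44.4 CPM in control cortex LPS, against 808 ± 70.8 CPM in control cortex saline, with an averaged change of -0.66 ± 0.09 (adjusted p = 3.15e-06), opposite in sign to Ldha. Eno3, the muscle enolase, fell by 0.48 ± 0.09 (adjusted p = 0.000315). Among the other 5 that fell, Hkdc1 and Pgam2 had group means under 1 CPM. The count of falls was 3 with the library set aside added back, and 4 without either MIA cortex saline 3 or MIA striatum LPS 2. Per setting, 2 rose and 3 fell in MIA striatum, 2 and 1 in MIA cortex, 4 and 3 in control striatum, and 4 and 2 in control cortex.

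Another list held the enzymes that make and break fructose 2,6-bisphosphate, the activator of phosphofructokinase. Of 5 tested, 3 rose and 0 fell with LPS on average. Pfkfb3, the kinase form that macrophages induce, stood at 417 ± 23.9 CPM in MIA striatum LPS (n = 2) and 119.6 ± 13.3 CPM in MIA striatum saline (n = 3), and at 353 ± 137 CPM in control cortex LPS and 118 ± 34.9 CPM in control cortex saline (SD, n = 3 each). Its averaged rise was 1.56 ± 0.14 (adjusted p = 2.13e-08), and it was called in all 4 settings. Tigar, which acts against Pfkfb3 as a phosphatase, rose by 1.25 ± 0.18 (adjusted p = 8.89e-06) at a low level, 5.65 ± 0.853 CPM in control cortex LPS and 2.04 ± 0.236 CPM in control cortex saline. Pfkfb4 rose by 0.69 ± 0.12 (adjusted p = 9.67e-05).

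Among 10 sugar and lactate carriers, 3 rose and 4 fell on average. Slc2a6, a lysosomal hexose carrier, rose by 3.76 ± 0.24 (adjusted p = 1.3e-10), with 29.2 ± 12.5 CPM in control striatum LPS and 1.85 ± 0.539 CPM in control striatum saline. Slc2a5, the fructose carrier typical of microglia, fell by 1.98 ± 0.13 (adjusted p = 2.55e-10) to 194 ± 73.8 CPM, against 856 ± 180.3 CPM in the same groups. Bsg, a partner protein of the lactate carriers, and the lactate carrier Slc16a7 fell by 0.54 ± 0.10 (adjusted p = 0.000203) and 0.55 ± 0.10 (adjusted p = 0.000244). The glucose carrier Slc2a1, abundant in brain endothelium, fell in control striatum by 1.03 ± 0.29 (adjusted p = 0.0135), where the endothelial sums above were also lower after LPS. In control cortex it was at 0.50 ± 0.28 (adjusted p = 0.263). The part of endothelial cells in the values of Slc2a1 was not tested.

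The pentose phosphate pathway, which branches off after hexokinase and supplies NADPH, had 7 tested genes, of which 6 rose and 0 fell on average. Pgd rose by 1.35 ± 0.09 (adjusted p = 1.3e-10), Tkt by 0.66 ± 0.07 (adjusted p = 2.82e-07), G6pdx by 0.68 ± 0.07 (adjusted p = 3.07e-07) and Taldo1 by 0.48 ± 0.06 (adjusted p = 2.65e-06). In each of MIA striatum, MIA cortex and control striatum 4 rose, and 5 rose in control cortex. At the entry of pyruvate into mitochondria, 5 of 11 genes rose and 2 fell on average, and the rises numbered 3 without MIA striatum LPS 2. The kinases of pyruvate dehydrogenase went both ways: Pdk3 rose by 0.75 ± 0.09 (adjusted p = 8.07e-07) and Pdk1 fell by 0.73 ± 0.09 (adjusted p = 1.59e-06), and Pdha1, a subunit of the dehydrogenase, rose by 0.40 ± 0.08 (adjusted p = 0.000564).

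Of 18 genes of the hypoxia response, to which Ldha, Pgk1 and Pdk1 are also known to belong, 2 rose and 5 fell on average. The share called was near the 37.6% of all genes, so these counts are no result about the hypoxia genes as a group. Hilpda, a lipid droplet protein, rose by 1.06 ± 0.13 (adjusted p = 1.39e-06), while Vhl, which marks HIF-1 for destruction, fell by 0.62 ± 0.06 (adjusted p = 1.38e-07), Ndrg1 by 1.58 ± 0.23 (adjusted p = 9.63e-06) and P4ha1 by 0.44 ± 0.08 (adjusted p = 0.000121). Hif1a itself, named here after its values were seen, was at 0.12 ± 0.06 (adjusted p = 0.13).

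**Figure D4:**
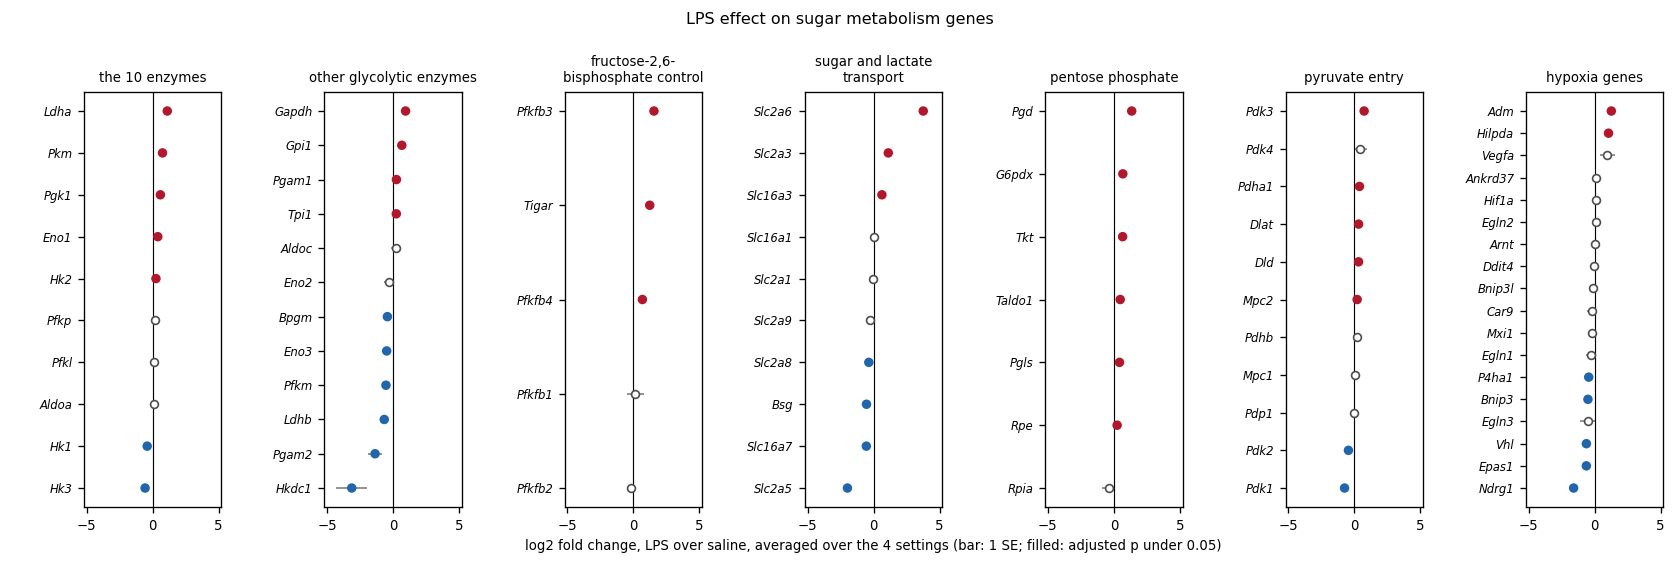
Log2 fold change of LPS over saline, averaged over the 4 settings, for the 10 enzymes and named genes of 6 further lists, with a bar of 1 SE; filled points passed the adjusted p of 0.05, red for higher and blue for lower. Slc2a6 at 3.76 is the highest point, and all filled points of the pentose phosphate list lie to the right of 0.

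MIA against control was compared at rest, after LPS, and as a difference between the LPS effects. At rest no member was called in striatum (0% of all genes called), cortex (0%) or their average (0%) by edgeR, and DESeq2 also called 0. In each, 0 members were at an unadjusted p under 0.05, against 4.91% of all genes in striatum, 5.37% in cortex and 6.55% on average. The averaged differences at rest ran from -0.29 ± 0.15 for Hk1 to 0.21 ± 0.10 for Hk2. For Ldha the difference at rest was 0.02 ± 0.08 with a 95% interval of -0.14 to 0.19.

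After LPS, 8 of the 10 members had lower averages in MIA than in control, none of them called. The median averaged difference was -0.14 over the 10 enzymes and -0.006 over all genes. All members were read from the same libraries, so the count of signs is a description with no test. No member was called in striatum (0.146% of all genes called), in cortex (0%) or on average (1.09%) by edgeR. Members at an unadjusted p under 0.05 numbered 0 in striatum, 1 in cortex (Hk1) and 1 on average (Hk1). Of all genes, 9.08% in striatum, 4.88% in cortex and 12% on average were under that unadjusted threshold. DESeq2 called 0, 0 and 1 of the members, against 242, 58 and 537 of all genes. Ldha averaged 565 ± 20.7 CPM in MIA striatum LPS (n = 2) and 598 ± 34.6 CPM in control striatum LPS (n = 3), with 564 ± 24.6 CPM in MIA cortex LPS and 629 ± 50.2 CPM in control cortex LPS (SD, n = 3 each). Its averaged difference was -0.12 ± 0.08 with a 95% interval of -0.29 to 0.05. Pkm was at -0.13 ± 0.13 (-0.40 to 0.14), Pgk1 at -0.14 ± 0.11 (-0.38 to 0.09) and Eno1 at -0.19 ± 0.11 (-0.43 to 0.04). Hk2, Hk3, Pfkl, Pfkp and Aldoa were at -0.16 ± 0.11, -0.09 ± 0.13, -0.25 ± 0.15, 0.11 ± 0.28 and -0.15 ± 0.09.

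**Figure D5:**
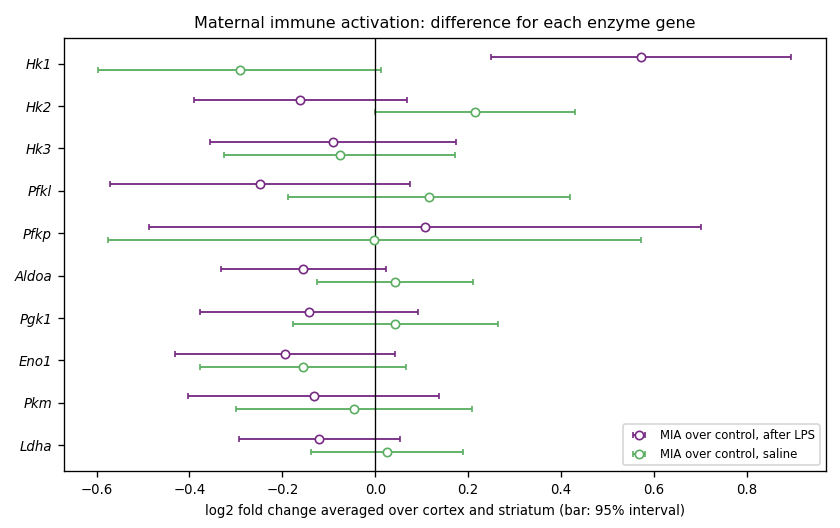
Log2 fold change of MIA over control for each enzyme gene, averaged over striatum and cortex, after LPS (purple) and after saline (green), with bars for the 95% interval. No point passed the adjusted p of 0.05 in edgeR; Hk1 after LPS at 0.57 is the farthest from 0.

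Hk1 was the member farthest apart between MIA and control after LPS. It stood at 42.5 and 35.9 CPM in MIA striatum LPS, against 25.6, 29.6 and 30.8 CPM in control striatum LPS. In cortex it stood at 30.5, 33.1 and 49.7 CPM in MIA LPS, against 28.1, 18.9 and 23.2 CPM in control LPS. The libraries did not overlap in either region, a separation upward that 11.8% of all genes had in striatum and 2.71% in cortex. The averaged difference after LPS was 0.57 ± 0.15 (95% interval 0.25 to 0.89), which edgeR did not call (adjusted p = 0.0845) and DESeq2 did (adjusted p = 0.0283). At rest the difference had the other sign, -0.29 ± 0.15 (adjusted p = 0.78).

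The test of whether LPS acted differently in MIA and control is the interaction. For Hk1 it was 0.83 ± 0.31 in striatum (adjusted p = 0.626), 0.90 ± 0.29 in cortex (adjusted p = 1) and 0.86 ± 0.21 on average (adjusted p = 0.147 in edgeR, 0.0297 in DESeq2). So the fall of Hk1 in control and its lack of a call in MIA were not shown to differ by edgeR. Among the 10 members, edgeR called 0 interactions in striatum (0% of all genes called), 0 in cortex (0%) and 0 on average (0.0175%). Members at an unadjusted p under 0.05 numbered 1 in striatum, 2 in cortex and 2 on average. The share of all genes under that unadjusted threshold was 7.72% in striatum, 4.34% in cortex and 9.32% on average. DESeq2 called 0, 0 and 1 of the members, against 37, 1 and 152 of all genes. The averaged interaction of Hk2 was -0.38 ± 0.15 (adjusted p = 0.426), and that of Ldha -0.14 ± 0.11 (95% interval -0.38 to 0.09). In cortex Pfkl had the lowest interaction of the 10 members, at -0.61, which was not called.

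MIA cortex LPS 3 stood apart from its group and had the highest Hk1 after LPS. Its 8 neuron markers summed to 848 CPM, against 67.7 and 56.1 CPM in the other MIA cortex LPS libraries and 92.1 to 183 CPM in control cortex LPS. Its oligodendrocyte sum was 1571 CPM, against 289.5 and 322 CPM in the other 2, and its endothelial sum 1174 CPM, against 544 and 607 CPM. Without this library the averaged difference of Hk1 after LPS was 0.45 (adjusted p = 0.167) and the averaged interaction 0.74 (adjusted p = 0.12). In striatum after LPS the neuron sums were 35.0 to 50.6 CPM in MIA and 27.4 to 46.2 CPM in control, which overlapped. Gad1 was at 0 in 2 of the 23 libraries and Slc17a7 in 1. Border macrophage sums after LPS were 833 to 1145 CPM in MIA striatum and 330.4 to 531 CPM in control striatum, and 492 to 1272 CPM in MIA cortex and 411 to 954 CPM in control cortex, with 0 of the 6 markers called on average. Of the 5 red blood cell markers 3 were called lower in MIA on average, and their sums, given above, did not overlap in either region. The part of all these cells in the values of Hk1 was not tested. With the library set aside added back the 2 values were 0.45 (adjusted p = 0.355) and 0.74 (adjusted p = 0.708).

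Between striatum and cortex no member was called. edgeR and DESeq2 called 0 members in MIA LPS (0.0117% of all genes called by edgeR), MIA saline (0.0817%), control LPS (0.0175%), control saline (0.502%) and the average of the saline groups (1.16%). At an unadjusted p under 0.05 the count was 1 in control saline (Pfkp) and 0 in the others. The share of all genes under that threshold was 11.8% in control saline and 12.1% in the average of the saline groups. It was 3.7% in MIA LPS, 4.57% in MIA saline and 4.7% in control LPS. Pfkp stood at 17.4, 18.1 and 9.11 CPM in control striatum saline, against 8.49, 6.29 and 8.42 CPM in control cortex saline, without overlap (12.4% of all genes were separated in this direction), a difference of 0.94 ± 0.39 (adjusted p = 0.31). Its striatum libraries 1 and 2 had the high oligodendrocyte sums given above, 5509.9 and 4149 CPM, and that of library 3, where Pfkp was 9.11 CPM, was 1307 CPM. Their part in the difference was not tested. For Ldha the averaged difference between striatum and cortex at rest was -0.01 ± 0.08 (95% interval -0.17 to 0.16). Whether the LPS effect differed by region was tested in MIA (0% of all genes called) and in control (0%), with 0 members called by edgeR or DESeq2. At an unadjusted p under 0.05 there were 0 members, against 2.79% of all genes in MIA and 5.52% in control. This does not show the effects to be equal.

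Within a group the members varied to different degrees. The highest control striatum LPS library was 2.05 times the lowest for Pfkl, 1.64 times for Pkm and 1.60 times for Eno1, but 1.11 times for Ldha. Replicate 1 held the highest value of 8 members in control cortex LPS and of 6 in control striatum LPS, and replicate 2 the lowest of 5 in each. Mitochondrial genes took 2.14, 4.37 and 1.93% of counts in control striatum LPS 1, 2 and 3 and 2.80, 3.68 and 2.11% in control cortex LPS 1, 2 and 3, with replicate 2 highest in both. The part of this share in the members' values was not tested.

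Over all 23 libraries, the genes whose log2 CPM ran most like each member were listed by Pearson's r, as a description across libraries that share the LPS contrast and their depth. For Ldha they were Srgn (0.99), Fcgr4 (0.99) and Ppa1 (0.98), for Pkm Prpf31 (0.97), Rmdn3 (0.96) and Fkbp4 (0.95), for Pgk1 Chmp2a (0.96), Wdr74 (0.96) and Nme1 (0.96) and for Eno1 Mdh2 (0.94), Psmd12 (0.94) and Psmc1 (0.93). For Hk3 they were Sema4d (0.92), Ppfia4 (0.91) and Adgrg1 (0.91), for Hk2 Dot1l (0.86), Fam173a (0.84) and Gatad2a (0.81) and for Hk1 Fbxo21 (0.83), Abi2 (0.82) and Sh3bp5 (0.80). The r values of Aldoa, with Mrps18a (0.83), Tpgs1 (0.82) and Pfdn1 (0.82), Pfkl, with Sgta (0.83), Atpaf2 (0.79) and Slc35a2 (0.79), and Pfkp, with Hmgcs1 (0.82), Ece1 (0.78) and Pdlim7 (0.77), were all under 0.85. The likest genes of Ldha followed it more closely than those of any hexokinase.

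Values that are not whole show that some reads of several members were split between genes. Which other genes shared them was not tested. Values of Pfkp, Pgk1, Eno1 and Pkm were not whole in every library, and those of Hk1 in 4.35% of them, while Hk2, Hk3, Pfkl, Aldoa and Ldha were always whole. Eno1b, a near copy of Eno1, held 2879 counts against 375412 for Eno1, and Pgk1-rs7 held 325 counts against 76453 for Pgk1. A separate entry with the symbol Aldoa (ENSMUSG00000114515.2) held 28 counts and was not used.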

How the data were processed

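RNA of CD11b-sorted cells had been turned into libraries with a modified Smart-Seq2 protocol with oligo-dT priming, per the labels' protocols; Smart-Seq2 keeps no strand information. The deposited table holds expected counts, which are estimated read counts per gene with no scaling, and the submitters' processing notes name STAR, RSEM and DESeq2 without versions or roles. The genome build and annotation are not given in the sources used here. Of 55487 gene identifiers, 54349 matched GENCODE release M21 (GRCm38) with the same version and 346 had no match, so gene positions and exon lengths are from that release, and promoter windows are from RefSeq on GRCm38.p6.

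Expected counts, 6.92% of which were not whole, were rounded. Genes with low counts were removed with edgeR's filterByExpr (minimum count 10, minimum total 15), libraries were scaled by TMM, and a quasi-likelihood model with 8 groups was fitted to 23 libraries in edgeR 4.0.16 (limma 3.58.1, R 4.3.3). The SE is the log2 fold change divided by the square root of F. P-values were adjusted over the 17139 genes within each of 21 comparisons. CPM uses the TMM-scaled totals. The library titled as excluded was left out, and no 2 libraries of a group agreed within sampling noise (chi-square per degree of freedom at least 14.5). Over all genes together, counting error at 19453295 to 29480499 counts per library was small beside the spread between libraries. It weighs more for scarce genes, such as Pfkp with 124 counts in control cortex saline 2.

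Alternatives were DESeq2 1.42.0, RLE scaling, no filter, the excluded library added back, replicate number as a block, each library left out, and, chosen after the marker sums were seen, both MIA cortex libraries numbered 3 left out. On counts simulated for the LPS comparison in control cortex (16577 genes in the fit), 10.4% of genes changed by a fold of 1.5 were called, 30% at a fold of 2, 66.7% at a fold of 4 and 51.0% at a fold of 0.25. Only 48 to 50 genes were changed per fold, drawn at random over all levels, against 18.2% of genes called in the data. The adjusted threshold was thus stricter in the simulation, and these shares are not the power for the members. The 10 members and all lists were chosen with earlier results of these data known. All members are described. Of the other lists, up to 4 called genes with the smallest adjusted p were named per comparison. Hif1a, Slc2a1, Hkdc1 and Pgam2 were named after their values were seen, and some list genes are not reported here by name. Each member was given the 3 genes of highest Pearson r of log2 CPM (prior count 2).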

Additional observations from a re-analysis of the deposited data

Results flagged for a closer look

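The library titled MIA striatum LPS 3, which the submitters had set aside, entered none of the comparisons above. Scaled with the other libraries it held 826 CPM of Ldha, 1226 CPM of Pkm, 1152 CPM of Eno1, 835 CPM of Aldoa, 233 CPM of Pgk1 and 26.4 CPM of Pfkp. Each of these 6 values lay above all 3 MIA striatum saline libraries, and each also above both MIA striatum LPS libraries that were used. Its other members stood at 161 CPM for Pfkl, 82.4 CPM for Hk2, 67.7 CPM for Hk3 and 20.1 CPM for Hk1, and these hexokinase values lay under every MIA striatum library that was used.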

How the results depend on the processing

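Leaving out each library in turn gave 1 to 4 called members for LPS in MIA striatum, 2 to 4 in MIA cortex, 4 to 7 in control striatum, 4 to 5 in control cortex and 6 to 7 on average, and 0 in every MIA, interaction and region comparison. The low end was 1 without MIA striatum LPS 1, LPS 2, saline 1 or saline 2, and 4 in control striatum without control striatum saline 1. With 1 MIA striatum LPS library left, that library was assumed to vary like the other groups. Of all genes, 1392 to 2202 were called for LPS in MIA cortex and 2216 to 3363 in control cortex with 1 library left out. In control striatum the count over all genes was 2583 to 3935, lowest also without control striatum saline 1, against 3576 with none left out. With the excluded library added back, 5 members were called in MIA striatum (4 higher, 1 lower) and 4 in control striatum (3 higher, 1 lower). In control striatum Hk1, Hk2 and Eno1 were lost (adjusted p = 0.077, 0.131 and 0.0688). Over all genes, the calls for LPS went from 1755 to 2201 in MIA striatum and from 3576 to 2876 in control striatum. DESeq2 called 1 member, Hk1, for MIA after LPS on average and 1 for the averaged interaction. Without the filter, Eno1 in control striatum was lost (adjusted p = 0.068). Without both MIA cortex libraries numbered 3, Pkm in MIA cortex was lost (adjusted p = 0.0886), and Hk1 after LPS averaged 0.45 (adjusted p = 0.181) with an interaction of 0.78 (adjusted p = 0.117). The cause of these changes was not tested. No member's change reversed its direction past the threshold under any of these alternatives, and DESeq2, RLE scaling, no filter, the added library and the blocks moved the median of all genes by at most 0.0417 on the log2 scale.

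Replicate numbers are shared by the groups, and 8 of 11 cortex and striatum pairs of the same number deviated together with r over 0.1 (-0.20 to 0.31), against 27 of 66 other same-number pairs. In 8 of the 11, all 3 of control LPS among them, the best match had the same number, a hint from the data, not the design. Since not every pair passed, the numbers were not taken to pair the libraries. With the replicate number as a block, 1 member was called for MIA after LPS on average (Hk1, 0.60, adjusted p = 0.0401) and Pgk1 was called in MIA cortex (adjusted p = 0.0272). The block by cortex and striatum pair called 0 members in the region comparisons.

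Counts over all genes also depended on the processing and on single libraries. For MIA after LPS, 25 genes were called in striatum, 0 in cortex and 186 on average by edgeR, 242, 58 and 537 by DESeq2, 81, 27 and 229 without the filter, and 42, 13 and 244 with the block. The averaged interaction had 3 by edgeR, 152 by DESeq2, 54 without the filter, 36 with the block and 0 to 106 with 1 library left out (106 without MIA cortex LPS 3). With the excluded library added back, 1, 0 and 46 were called for MIA after LPS and 0 for the averaged interaction. Striatum against cortex in control saline had 86 by edgeR, 575 by DESeq2, 445 without the filter, 19 with the excluded library, 627 with the pair block and 0 to 220 with 1 library left out. The average of the saline groups had 198, 593 by DESeq2 and 567 without the filter. LPS in MIA striatum had 1755, and 758 without MIA striatum LPS 2. At rest, MIA against control had 0 by edgeR and 30 on average by DESeq2.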
